A study of Arabidopsis thaliana with 6 samples.

Results

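Kunitz-type protease inhibitors are small proteins that block digestive and cellular proteases, and in Arabidopsis thaliana they form a small family. The 7 family members followed here were DR4 (AT1G73330), AT1G73325, KTI1 (AT1G73260), AT1G17860, WSCP (AT1G72290), AT3G04320 and AT3G04330, all of which were found by AGI locus code among the 28387 genes of the deposited table. The family was picked from measured values of this comparison, because DR4 was higher in the mutant, so the differences of its members are given as a description and are not tested. WSCP has no symbol of its own in the reference table.

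The arrays compared leaves of the T-DNA line atpip1;2-1 (3 arrays) with leaves of the wild type N60000 (3 arrays), both as plants of 3 weeks from a greenhouse at ambient carbon dioxide. RNA of 5 plants went onto each array, from 15 plants per line, so each value is that of a pool. The mutant is 1 insertion line of the aquaporin gene PIP1;2, and no other agent or allele is named in the labels. Values are log2 expression values, and differences are mutant minus wild type on that scale. With whole leaves, fewer cells of a type and less RNA per cell cannot be told apart.

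Kunitz-type inhibitors fold into a compact barrel whose exposed loop enters the active site of a serine protease such as trypsin, and some members act on cysteine proteases instead. In plants they are known from storage organs, from the response to wounding and insect feeding, and from the control of cell death. WSCP, a water-soluble chlorophyll-binding protein, both binds chlorophyll and inhibits the papain-like protease RD21. KTI1 has been studied as a brake on cell death during infection and, with AT1G17860, in the defence against spider mites. DR4 takes its name, drought-repressed 4, from the loss of its transcript as plants dry out.

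The label of the mutant was checked on its target: PIP1;2 (AT2G45960) averaged 8.87 ± 0.23 over the wild type arrays and 5.28 ± 0.20 over the mutant arrays (SD, n = 3). Array medians lay between 3.78 and 3.84, and correlations between arrays over genes between 0.975 and 0.989. The 5 leaf marker genes lay between percentiles 97.4 and 99.2 of all genes, and the 11 markers of root, flower and seed at or under percentile 37.7. None of the 16 markers passed the threshold used below with limma, where 0.342% of all genes did. An unadjusted p under 0.05 was found for 3 of them, where 12.2% of all genes had one. The summed log2 values of the leaf markers ran from 50.6 to 50.8 in the mutant and from 49.4 to 49.9 in the wild type, and those of the 3 flower markers from 5.88 to 6.06 and from 6.44 to 7.65, while the sums of the root and seed markers overlapped. Their part in the differences described here was not tested. Wild type array 3 stood apart among dim genes. The median of the dimmest 25% of genes was 1.85 on that array and between 1.66 and 1.72 on the other 5.

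DR4 had the largest difference of the 7 members and was higher in the mutant. The 3 mutant arrays read 4.34, 4.05 and 4.02, and the 3 wild type arrays 2.34, 2.47 and 2.50. Every mutant array lay above every wild type array, and the lowest mutant value was 1.51 above the highest wild type value. The mutant mean was 4.14 ± 0.18 and the wild type mean 2.44 ± 0.09 (SD, n = 3). The difference was 1.70 (SE 0.16), or 3.24-fold, which places DR4 at rank 20 of all genes ordered from the highest difference. The wild type mean lay close to 2.20, under which the dimmest 25% of genes fell, and the tables carry no background values, so the size of the fold change is uncertain. Leaving out any 1 array gave differences between 1.59 and 1.76.

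**Figure D1:**
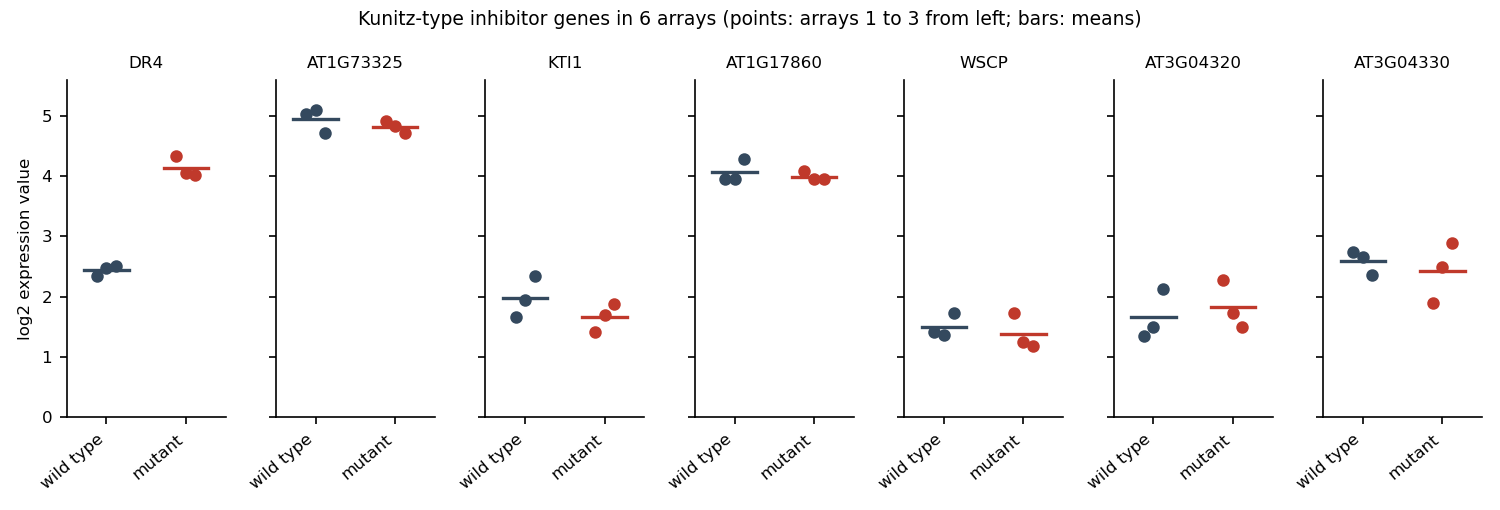
Log2 expression values of the 7 Kunitz-type genes, with 1 point for each of the 3 wild type arrays (dark) and the 3 mutant arrays (red) and a bar at each mean. DR4 runs from 2.34 to 2.50 in the wild type and from 4.02 to 4.34 in the mutant, while the groups overlap in the other 6 genes. The values of different genes come from different probes and are not amounts to be ranked.

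AT1G73325, the gene listed next to DR4 in the reference annotation with 0 genes between them, did not share its shift. Its mutant arrays read 4.92, 4.83 and 4.72, and its wild type arrays 5.03, 5.10 and 4.72. The groups overlapped, since wild type array 3 fell to the level of the lowest mutant array. The difference was -0.13 (SE 0.17), opposite in sign to that of DR4. Its level stood above the dimmest 25% of genes on all arrays.

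KTI1, the trypsin inhibitor, was the member with the most negative difference. The mutant arrays read 1.42, 1.70 and 1.87 and the wild type arrays 1.66, 1.94 and 2.34. The ranges overlapped, and the highest value came from wild type array 3. The difference was -0.32 (SE 0.21), and it was -0.14 (SE 0.20) without wild type array 3. Both group means lay among the dimmest 25% of genes, and the tables used here hold no background values to show whether KTI1 was detected.

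AT1G17860, the other member studied in mite defence, was nearly level between the lines. Its mutant arrays read 4.08, 3.95 and 3.95 and its wild type arrays 3.95, 3.96 and 4.29. The lowest values of both lines were alike, and wild type array 3 was the highest of the 6. The difference was -0.07 (SE 0.16), and 0.04 (SE 0.17) without that array.

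WSCP was dim in both lines. The mutant arrays read 1.73, 1.25 and 1.18 and the wild type arrays 1.41, 1.37 and 1.72. One array in each line reached about the same height, mutant array 1 and wild type array 3. The difference was -0.12 (SE 0.20). Both means of this chlorophyll-binding inhibitor lay among the dimmest 25% of genes.

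The neighbouring pair on chromosome 3, AT3G04320 and AT3G04330, had the largest standard errors of the 7 members. For AT3G04320 the mutant arrays read 2.27, 1.72 and 1.50 and the wild type arrays 1.34, 1.50 and 2.13, a difference of 0.17 (SE 0.26). For AT3G04330 the mutant arrays read 1.90, 2.50 and 2.90 and the wild type arrays 2.74, 2.66 and 2.36, a difference of -0.16 (SE 0.25). The pair ran in opposite order over the arrays: where AT3G04320 was highest in a line, in mutant array 1 and wild type array 3, AT3G04330 was lowest. Without mutant array 1 both signs turned, to -0.04 (SE 0.26) and 0.11 (SE 0.22). The means of AT3G04320 lay among the dimmest 25% of genes in both lines.

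**Figure D2:**
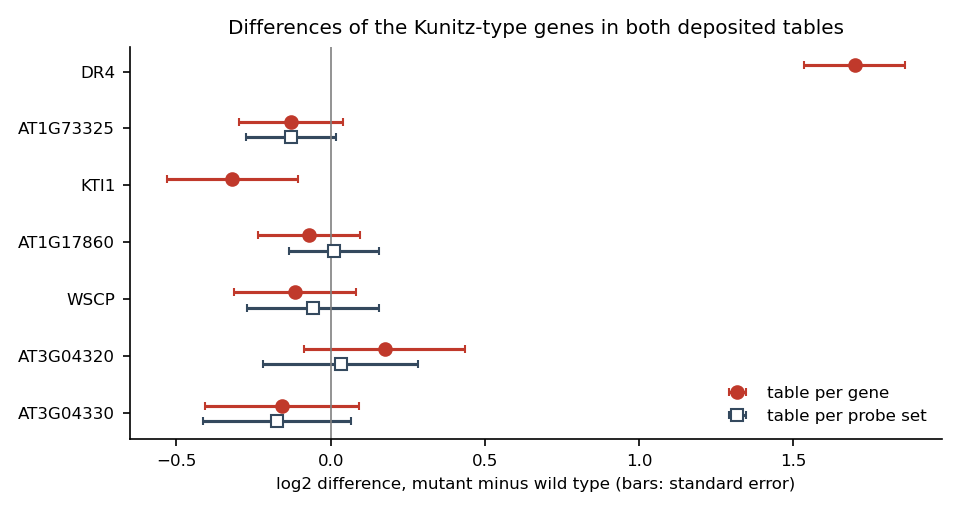
Differences of the 7 genes on the log2 scale, mutant minus wild type, with standard errors, from the table per gene (filled) and, for 5 genes, from the table per probe set (open). DR4 stands at 1.70, and the other 6 genes lie between -0.32 and 0.17 in the table per gene.

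As a family, 2 members had a higher mean in the mutant and 5 a lower one, with a median difference of -0.12, against -0.010 over all genes. In the fit across all genes, limma with Benjamini-Hochberg adjustment, DR4 was the 1 member of 7 past an adjusted p of 0.05, a threshold that 0.342% of all genes passed and 0.187% passed as higher in the mutant. It was also the 1 member whose groups did not overlap, which was the case for 18.5% of all genes. Since the same contrast chose the family, nothing is read from these counts. The standard errors of the members ran from 0.16 to 0.26, around the median of 0.19 over all genes, so differences of the size seen in the other 6 genes were not resolved by 3 arrays against 3, and equal levels are not shown.

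Of the 7 members, 5 were highest among the wild type arrays in array 3, and 5 were highest among the mutant arrays in array 1. The others were lowest there: AT1G73325 and AT3G04330 in wild type array 3, and KTI1 and AT3G04330 in mutant array 1. Whether the members shared variation between arrays was not tested. Within the 3 wild type arrays, 36.3% of all genes and 52.4% of the dimmest 25% of genes were highest in array 3. Within the 3 mutant arrays, the corresponding shares for array 1 were 31.1% and 32.6%. The part of the raised dim values of wild type array 3 in the values of KTI1, WSCP and AT3G04320 was not tested. Without that array the difference of DR4 was 1.73 (SE 0.18), that of WSCP -0.0057 (SE 0.21) and that of AT3G04320 0.41 (SE 0.24).

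The second deposited table, with 1 value per probe set, named 5 of the 7 members, each with 1 probe set. Only probe sets annotated to 1 gene were used there. DR4 and KTI1 were not among the genes named in this way and were not analysed in that table. AT1G73325 had -0.13 (SE 0.15) and AT3G04330 had -0.17 (SE 0.24), with values over the 6 arrays that correlated at 0.99998 and 0.999 with the table per gene. AT1G17860 had 0.010 (SE 0.15), WSCP -0.058 (SE 0.21) and AT3G04320 0.033 (SE 0.25), and for these 3 genes the correlations were 0.830, 0.929 and 0.880. The mean of AT1G17860 in the mutant was 3.14 in that table and 3.99 in the table per gene. Array medians were also lower there, between 3.33 and 3.41, and the part of probe grouping in the lower value was not tested. All 5 genes had overlapping groups in both tables. The tables rest on the same arrays.

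DR4, AT1G73325 and KTI1 lie in 1 stretch of chromosome 1, with 6 genes listed between KTI1 and AT1G73325. Of these, 5 code for serine carboxypeptidase-like proteins (scpl2 to scpl6), which are related to proteases of the kind that trim proteins from their end. Over the measured genes from AT1G73230 to AT1G73360, 12 are not Kunitz-type genes. None of the 12 passed the threshold with limma (0.342% of all genes did), and 2 had an unadjusted p under 0.05 (12.2% of all genes did). The groups overlapped in all 12 (they did not in 18.5% of all genes). The carboxypeptidase-like gene scpl4 (AT1G73310) had 0.58 (SE 0.25, adjusted p = 0.398), and scpl5 had 0.077 (SE 0.21). The other carboxypeptidase-like genes had negative differences: scpl3 -0.54 (SE 0.29), scpl2 -0.31 (SE 0.26) and scpl6 -0.12 (SE 0.21). AT1G73230 had -0.46 (SE 0.21, adjusted p = 0.407). On the far side of DR4, AT1G73340 had 0.38 (SE 0.20, adjusted p = 0.493) and AT1G73350 had -0.21 (SE 0.19, adjusted p = 0.715). Around AT3G04320 and AT3G04330, the 4 other genes lay between -0.22 and 0.090. None of these was past the threshold by limma, and 0 had an unadjusted p under 0.05. With so few genes at the shares given above, these counts are not read as a result about the neighbours.

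**Figure D3:**
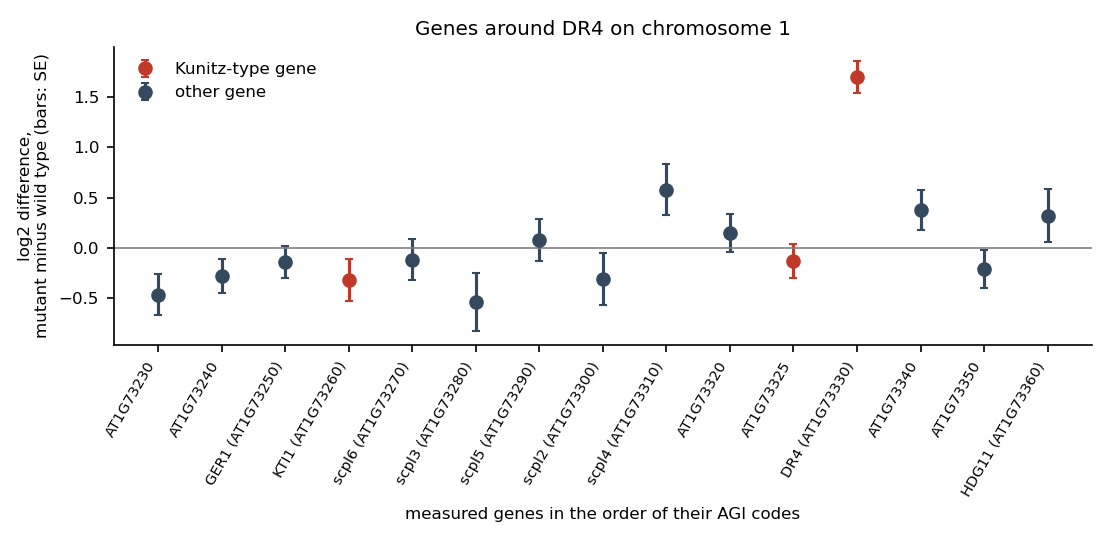
Differences on the log2 scale, mutant minus wild type, with standard errors, for the 15 measured genes from AT1G73230 to AT1G73360 in the order of their codes. DR4 stands at 1.70, and the 12 genes that are not Kunitz-type inhibitors (dark) lie between -0.54 and 0.58.

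Other families of protease inhibitors did not pass the threshold. The list held 28 genes, all measured: cystatins, which block cysteine proteases; serpins, which trap proteases in a covalent complex; mustard-type trypsin inhibitors; and inhibitors of the potato type I family. None of the 28 passed with limma, where 0.342% of all genes did, and 2 had an unadjusted p under 0.05, where 12.2% of all genes did. A higher mean in the mutant was found for 16 of the 28 and for 48.4% of all genes. Their median difference was 0.034, against -0.010 over all genes. The cystatin gene CYSA (AT2G40880) read 5.48, 5.52 and 5.44 in the mutant and 5.19, 4.85 and 5.18 in the wild type, a difference of 0.41 (SE 0.16, adjusted p = 0.363). Its groups did not overlap. The trypsin inhibitor gene TI1 (AT2G43510) read 3.00, 2.48 and 1.65 in the mutant and 2.93, 3.12 and 3.23 in the wild type, a difference of -0.71 (SE 0.30, adjusted p = 0.376). Mutant array 1 overlapped with the wild type, and mutant array 3 was far under the rest.

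Papain-like cysteine proteases, the class to which the WSCP target RD21 belongs, held no gene past the threshold. Of the 29 listed genes, 0 passed with limma, where 0.342% of all genes did. At that share, 0 of 29 says little about the class. A higher mean in the mutant was found for 18 of the 29 and for 48.4% of all genes. The median difference was 0.14, against -0.010 over all genes. An unadjusted p under 0.05 was found for 6 of the 29 (4 higher and 2 lower), where 12.2% of all genes had one. The groups did not overlap in 7 of the 29, where they did not in 18.5% of all genes. The difference of these shares from those of all genes was not tested. AT3G49340 read 2.11, 2.62 and 1.80 in the mutant and 3.17, 3.01 and 3.52 in the wild type, a difference of -1.06 (SE 0.23, adjusted p = 0.123). AT4G11320 read 5.97, 6.04 and 6.11 in the mutant and 4.82, 5.42 and 5.45 in the wild type, a difference of 0.81 (SE 0.20, adjusted p = 0.157). Each of these genes separated the lines on all arrays, in opposite directions. RD21A (AT1G47128), named here for its part as the partner of WSCP and not by size, had 0.015 (SE 0.15, adjusted p = 0.982).

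Among the proteases of cell death, the process that KTI1 is known to restrain, the vacuolar processing enzyme gene GAMMA-VPE (AT4G32940) was higher in the mutant. This enzyme matures vacuolar proteins and takes part in the collapse of the vacuole. Its mutant arrays read 9.22, 9.16 and 9.23 and its wild type arrays 8.30, 8.33 and 8.32. Each line varied little and the lines were well apart, with a difference of 0.89 (SE 0.15, adjusted p = 0.0446 by limma). It was the 1 gene past the threshold of the 13 vacuolar processing enzyme and metacaspase genes on the list, and 12 did not pass, where 0.342% of all genes passed and 0.187% passed as higher in the mutant. The list's median difference was 0.075. The list was chosen with earlier results of these data known, so the call is a description and not an independent test. The call lay close to the threshold and held in 3 of 13 alternatives. Leaving out any 1 array gave adjusted p from 0.10 up to 0.177, with 5 arrays in place of 6.

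The 5 genes of chlorophyllide synthesis and chlorophyll breakdown, whose products are of the kind that WSCP binds, did not pass with limma. The threshold was passed by 0.342% of all genes. An unadjusted p under 0.05 was found for 0 of the 5, where 12.2% of all genes had one. The median difference of the 5 was -0.079, against -0.010 over all genes. PORC, a protochlorophyllide reductase gene, had 0.28 (SE 0.17, adjusted p = 0.562), and PORA, another of these reductase genes, had -0.24 (SE 0.20, adjusted p = 0.684). The groups overlapped in all 5, where they did not in 18.5% of all genes. With 5 genes, counts of 0 lie near these shares and are not read as a result.

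**Figure D4:**
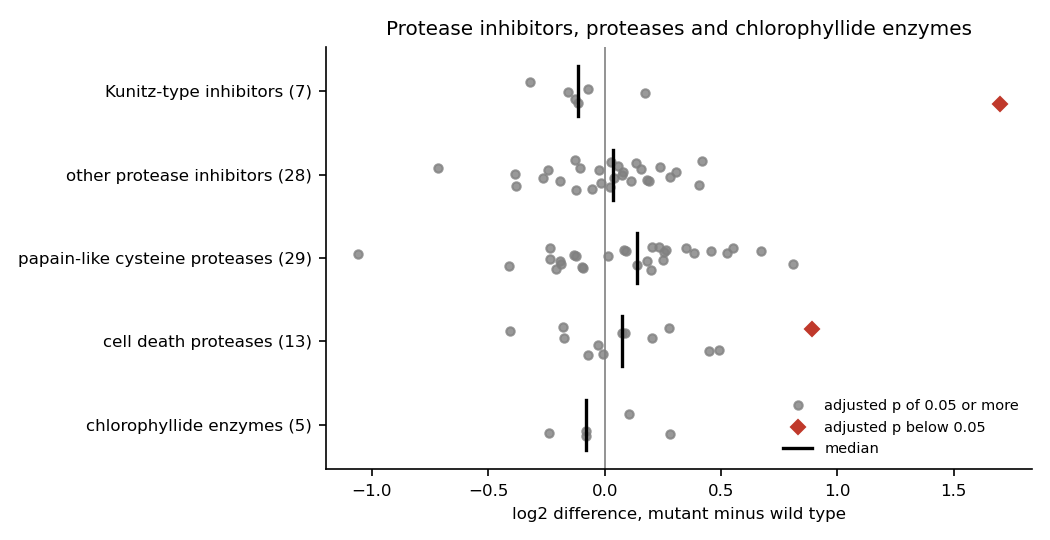
Differences on the log2 scale, mutant minus wild type, for each gene of the Kunitz-type family and of 4 lists (gene numbers in parentheses), with diamonds for genes past an adjusted p of 0.05 and a line at each median. The diamonds are DR4 at 1.70 and GAMMA-VPE at 0.89, and the vertical spread within a list has no meaning.

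The genes with a pattern most like that of DR4 were looked for by Pearson correlation over the 6 arrays, among 5159 genes whose values spanned at least 1 log2 unit. The highest 5 were MAM1 (AT5G23010), at 0.996, the chloroplast genes ATCG01020 and ATCG00220, at 0.991 and 0.989, AT4G31355 at 0.987 and AT4G16260 at 0.987. MAM1 codes for the methylthioalkylmalate synthase of aliphatic glucosinolate synthesis. With 3 arrays in each line, a correlation this high mostly restates that a gene is higher in all 3 mutant arrays, and the differences of the 5 genes ran from 1.00 to 2.17. The correlations of the other 6 members with DR4 ran from -0.57 for KTI1 to 0.36 for AT3G04320. A gene whose groups overlap cannot reach a correlation as high as those of the 5 genes, so these values restate the overlap. Of the 6, only AT3G04330 spanned at least 1 log2 unit and was among the genes compared. All these points share the same 6 arrays.

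**Figure D5:**
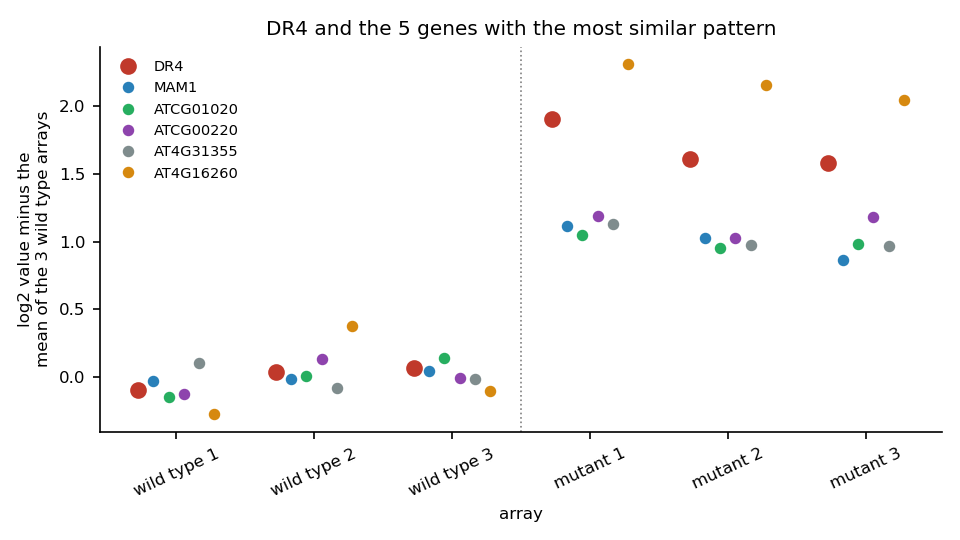
Log2 values of DR4 and of the 5 genes with the most similar pattern on each of the 6 arrays, each minus the gene's mean over the 3 wild type arrays. All 6 genes are higher on every mutant array than on any wild type array, with mean differences between 1.00 and 2.17.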

How the data were processed

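Leaf RNA of 2 lines was measured on 6 Affymetrix arrays, 3 per line. The authors deposited log2 values, 1 per gene and array, and the submitters' processing notes name RMA (background correction, normalization between arrays and summarising of probes) and Partek, with no versions. Neither the grouping of probes by gene nor the genome build was given in the sources used here, and another grouping can change a gene's value. A second deposited table holds values per probe set, taken as log2 from their range. Through the platform annotation, with only probe sets of 1 gene kept, 5 members were named in it. The labels call the arrays biological replicates, and no scan batch is given. The number of arrays limits the precision.

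The 28387 genes were fitted together in R 4.3.3 by limma 3.58.1, using lmFit, eBayes and two-sided tests without covariates. P-values were adjusted after Benjamini and Hochberg across the whole table. The fit was run on simulated data with known changes and noise drawn independently for each gene and array. The simulation held no array-wide shift such as that of wild type array 3 among dim genes, so it does not check for one. Members and lists were chosen with earlier results of these data known. Named were all members, up to 4 genes past the threshold of each list or otherwise the 2 with the smallest unadjusted p, neighbours by code, and the 5 genes most like DR4. RD21A was added for its role. Symbols came from a RefSeq table of assembly TAIR10.1. No coordinates or sequences are given. Figures were drawn with matplotlib 3.10.9. Alternatives were the table per probe set, no dim genes, a variance trend with robust fitting, other scalings, no moderation, a replicate block and each array left out.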

Additional observations from a re-analysis of the deposited data

How the results depend on the processing

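The differences of the 7 Kunitz-type genes moved by less than the spread between replicates in all 86 values from the 13 alternatives. Most of these values could not have come out otherwise. Leaving out dim genes, the variance trend, no moderation and the replicate block do not change a difference. With 3 arrays per line, leaving out 1 cannot move a difference by as much as that spread. Only the table per probe set and the other scalings could have moved it further. DR4 was higher in the mutant in the 12 that measured it. Leaving out arrays could not turn that sign, since its groups did not overlap. DR4 was past the threshold in 11 of the 12, the exception being no moderation of the spread. Since the family was picked because DR4 rose, nothing is read from these counts. The sign turned in AT1G17860 without wild type replicate 3 (0.04) and in the probe-set table (0.010), and in AT3G04320 (-0.04) and AT3G04330 (0.11) without mutant replicate 1. The count of genes past the threshold, 97 of 28387, was 34 in the probe-set table, where fewer genes, 16505, were named and tested. It was 375 with a variance trend and robust eBayes, and 0 without moderation of the spread in limma's linear fit (3076 at an unadjusted p under 0.05). Leaving out 1 array, which leaves fewer samples, gave between 14 and 48. Among papain-like cysteine proteases the variance trend with robust eBayes called 1 gene in place of 0, the aleurain-like protease gene ALP (AT5G60360, 0.67, adjusted p = 0.0456). The 1 call among cell death proteases, GAMMA-VPE, became 0 in the probe-set table (which named 3 of the 13 genes), with quantile normalization again, without moderation, with the replicate block and without each array in turn (0 in every case), while its difference stayed between 0.80 and 0.92 and its adjusted p from limma ran from 0.00111 to 0.177. The replicate block gave 45 genes past the threshold in place of 97. The numbers were not taken to pair the arrays: deviations of same-numbered arrays correlated at 0.0085, 0.050 and 0.075, and 5 of 6 arrays correlated best with their own number, a hint from the data and not from the design. Without background values, the dim levels of KTI1, WSCP and AT3G04320 limit what can be said of them.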
